A study of Mus musculus with 6 samples.

Results

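Paxbp1, Gcfc2, Tfip11, Dhx15 and Dbr1 encode proteins tied to the excised intron at the end of splicing, and their RNA was followed in mouse thymocytes from a conditional deletion of Paxbp1 and from controls. They were taken from the table by symbol and make up 5 of the 22322 genes in the deposited table. All 5 had counts in every library and passed the filter on low counts. RNA-Seq was performed on CD4 and CD8 double-positive (DP) thymocytes sorted from thymus, in 3 libraries from control mice with the genotype Paxbp1fl/fl and 3 libraries from cKO mice with the genotype Paxbp1fl/fl Lckcre. The labels list no treatment for either group, and both carry the floxed allele on the C57BL/6 background, while Cre is listed for the cKO mice alone. In the cKO mice Cre is driven by the Lck promoter, which is active from early stages of the T lineage. The mice were littermates of 4 to 7 weeks and of mixed sexes. The labels do not say whether each library came from a separate mouse, so the p-values measure the spread between these libraries.

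When the spliced mRNA has left, the intron stays behind as a lariat held by the remaining spliceosome, which is called the intron-lariat spliceosome. The helicase Dhx15 takes this particle apart, and Tfip11, a protein with a G-patch motif, activates Dhx15 for that step. Paxbp1 and Gcfc2 are related proteins of the GC-rich sequence DNA-binding factor family, and both have been found with Tfip11 and Dhx15 on this late particle. Dbr1 is the debranching enzyme, which cuts the branch point bond so that the linear intron can be degraded or give up a small nucleolar RNA (snoRNA). Paxbp1 owes its name to another role, as a partner of the muscle progenitor factors Pax3 and Pax7.

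The study used mice in which exon 8 of Paxbp1 is flanked by loxP sites. Per the GENCODE M21 annotation of mouse build GRCm38, the gene spans 91014037 to 91044543 on chromosome 16, minus strand, and its coding transcript has 18 exons. The study gives the floxed exon by number, without coordinates or a transcript. Exon 8 of this coding transcript was taken to be that exon and is printed first. It lies at chr16:91030433-91030556, entirely within the reading frame, and its 124 nt are no multiple of 3. A transcript that the annotation marks for nonsense-mediated decay uses a longer exon 8, chr16:91030416-91030556, and its additional 17 nt stand in capitals in the second line. The third line joins the last 15 nt of exon 7 to the first 12 nt of exon 9, as in a transcript without exon 8, and the first stop codon in frame is in capitals. All are written 5′ to 3′ on the strand of the gene.
Exon 8, coding transcript: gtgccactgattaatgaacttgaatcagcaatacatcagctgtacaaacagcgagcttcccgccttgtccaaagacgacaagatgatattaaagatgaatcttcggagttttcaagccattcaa
Exon 8, longer form: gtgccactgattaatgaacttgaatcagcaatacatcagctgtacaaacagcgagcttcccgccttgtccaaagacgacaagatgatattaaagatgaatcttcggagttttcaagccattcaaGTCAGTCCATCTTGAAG
Exon 7 joined to exon 9: tgtttcagtgaaaagataaagcttTGA

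In the annotated transcript 919 codons precede the stop codon. Without exon 8 the frame would meet a stop after 466 codons, of which 463 come from exons 1 to 7, and 9 exon junctions would lie downstream of it. The longer exon 8 leads to the same stop codon, 9 nt into exon 9, after 513 codons. The annotation of the longer form places its stop codon there as well, from 91027318 to 91027320. These are properties of the reference sequence, and no count of exon 8 or of its junctions was used. Counts per gene draw on the whole transcript, and they do not measure the deleted exon or check the genotype labels, so the libraries are named by those labels throughout. The study also assayed the deletion by PCR and western blot, which are not analysed here.

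**Figure D1:**
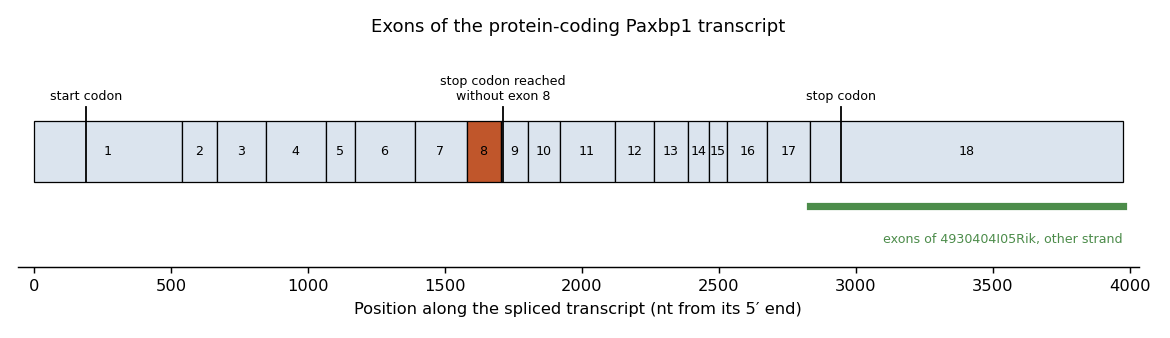
The 18 exons of the protein-coding Paxbp1 transcript drawn to scale along its 3973 nt, with exon 8 filled, the annotated start and stop codons, the stop codon reached when exon 8 is absent, and the stretch covered by exons of a gene on the other strand. The stop reached without exon 8 lies at the start of exon 9, and the overlap with the other gene takes up the whole of exon 18.

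The libraries held between 18963775 and 26252248 counts and were compared as CPM, the share of a library's counts scaled to a fixed total, after TMM normalization. The groups lay on opposite sides of the first principal component (38.9% of the variance). All 10 listed markers of DP thymocytes were detected, Cd4, Cd8a and Rag1 among them. Their summed level was 9976 to 11939 CPM in the control libraries and 7502 to 9023 CPM in the libraries labelled cKO, with 3 of the 10 called lower by edgeR and 0 higher. Markers of macrophages moved the other way, from 33.2 to 73.2 CPM in the control libraries to 91.0 to 132 CPM in those labelled cKO, with 4 of the 9 tested markers called higher and 0 lower. Among them Adgre1 was at 0 in all control libraries, and Mertk was at 0 in all 6 libraries. Markers of the preceding stages summed to 66.9 to 113 CPM in the control libraries and 78.5 to 99.2 CPM in those labelled cKO. Ptcra makes up most of that sum, and 1 of the 4 markers, Il2ra, was called higher, from 4.67, 7.76 and 6.37 CPM to 16.6, 16.6 and 11.3 CPM (edgeR adjusted p = 0.0212). Kit, Ptcra and Cd44 had negative log2 fold changes of -0.93, -0.31 and -0.0091 and were not called. Summed levels of the other marker lists were 293 to 455 against 237 to 329 CPM for mature single-positive thymocytes, 1.54 to 3.96 against 4.06 to 6.25 CPM for dendritic cells, 40.9 to 45.1 against 25.5 to 28.8 CPM for B cells (Cd79b called lower), 17.1 to 90.3 against 0.548 to 30.7 CPM for erythroid cells and 11.3 to 13.7 against 9.54 to 13.7 CPM for thymic epithelial cells, control libraries first. The part of such cells in the levels below was not tested. In a sorted population, fewer cells of a type and less RNA per cell cannot be told apart.

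All 5 genes had a higher mean in the libraries labelled cKO, and the differences were modest for 4 of them, at 1.22-fold to 1.45-fold, and 1.89-fold for Paxbp1. A positive log2 fold change, cKO over control, was seen for 5 of 5 genes and for 49.8% of the 11488 genes tested. The median was 0.34 for the 5 genes and -0.0017 for all tested genes. The quasi-likelihood test of edgeR, with Benjamini-Hochberg adjustment over all tested genes, gave 0 of the 5 an adjusted p below 0.05, where 10.4% of tested genes had one, 4.47% higher and 5.89% lower. The study's threshold, which it used with DESeq2, also asks for an absolute log2 fold change above 1. Applied to this edgeR fit with all libraries, that threshold was passed by 2.76% of tested genes and by 0 of the 5. Before adjustment 3 of the 5 had a p below 0.05, which held for 27.9% of tested genes. DESeq2 called 2 of the 5, both higher, where it called 16.9% of all genes and 8.3% higher. Limma-voom called 1, higher, where it called 11.5% of all genes and 5.22% higher. Without control library 1 edgeR called 3 of the 5, all higher, where it called 17.1% of all genes and 8.42% higher. For 2 of the 5, Gcfc2 and Dhx15, the groups were fully apart, with the libraries labelled cKO above. Groups were apart for 33.0% of tested genes, and the libraries labelled cKO were above for 15.7%.

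**Figure D2:**
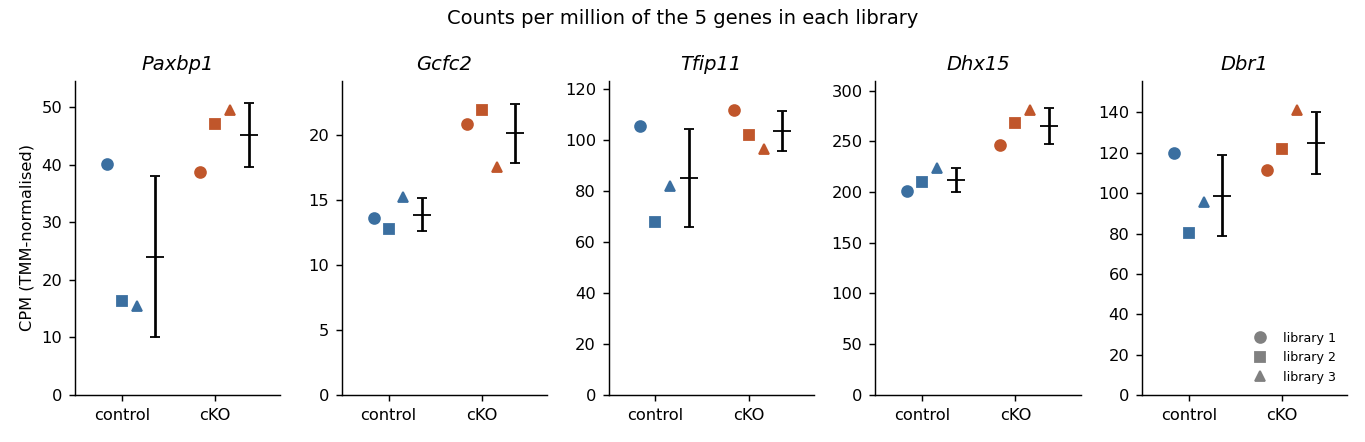
TMM-normalised CPM of the 5 genes in each library, with a separate linear axis from 0 for each gene. Symbols mark the library number, which was not used to pair the groups in the main comparison. The bar to the right of each group is the mean ± S.D. (n = 3). Control library 1 stands with the libraries labelled cKO for Paxbp1, while the groups are apart for Gcfc2 and Dhx15.

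The gene targeted in the cKO mice had a higher mean, not a lower one, in the libraries labelled cKO. Paxbp1 was counted 774 times in control library 1, 318 times in control library 2 and 400 times in control library 3, or 40.1, 16.3 and 15.5 CPM. For cKO 1, 2 and 3 the counts were 851, 905 and 1075, or 38.8, 47.1 and 49.6 CPM. Control library 1 thus lay above the library labelled cKO 1, and the remaining control libraries lay far below all others. The log2 fold change was 0.92 with a 95% confidence interval of 0.19 to 1.64, which is not adjusted for the number of genes (edgeR adjusted p = 0.0977). Within the control group the standard deviation of log2 CPM was 0.77, and 91.7% of tested genes varied less between the control libraries. In the libraries labelled cKO it was 0.19, close to the median of 0.19 over all genes. Without control library 1 the log2 fold change reached 1.5, with an edgeR adjusted p of 0.0017, and without any other library it was 0.68 to 1.01.

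Part of the Paxbp1 count can come from another gene. The exons of 4930404I05Rik, on the plus strand, cover 1142 nt of the coding transcript, which is all of exon 18 and 28.7% of its length. 4930404I05Rik is not among the genes with deposited counts, so its own level is unknown. The sources used here do not say whether strand was used in counting, so reads of both genes over this stretch cannot be told apart. The longest run of identical bases between any annotated transcripts of Paxbp1 and its relative Gcfc2 was 17 nt on the same strand and 20 nt on opposite strands.

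Gcfc2, the relative of Paxbp1, had the largest difference among the 4 other genes. It lies on the plus strand of chromosome 6, from 81923669 to 81959915. Its level was 13.6, 12.7 and 15.3 CPM in the control libraries and 20.9, 22.0 and 17.6 CPM in the libraries labelled cKO. Each library labelled cKO was above each control library, and cKO 3 came within a few CPM of control library 3. Its log2 fold change was 0.54, with a 95% confidence interval of 0.11 to 0.96 (edgeR adjusted p = 0.0972). It kept its sign in all 13 alternative settings, between 0.47 and 0.62, and passed in 0 of them.

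The balance between Gcfc2 and Paxbp1 was read within each library, where it does not depend on library size. Per length, as FPKM, Gcfc2 stood at 27.0% of Paxbp1 in control library 1, 57.8% in control library 2 and 75.8% in control library 3. In the libraries labelled cKO it was 42.0%, 34.7% and 25.6%. The ranges of the groups overlapped, with the widest spread in the control libraries. Between groups the ratio of the counts was compared, where gene length plays no part. Its mean log2 value was -0.65 ± 0.80 (S.D., n = 3) for control and -1.16 ± 0.30 for cKO. The difference of -0.52 was not beyond the spread, with p = 0.4 in an exact two-sided permutation test and 0.4 after Benjamini-Hochberg adjustment over 6 such tests. With 3 libraries against 3, this test cannot give a p below 0.1. For the 5 genes themselves, the same exact permutation test on CPM gave p = 0.1 for Gcfc2 and Dhx15, 0.2 for Paxbp1 and Dbr1 and 0.3 for Tfip11, with adjusted p between 0.3 and 0.36.

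Dhx15, the helicase, is encoded on chromosome 5, minus strand, from 52150203 to 52190514. It stood at 201, 210 and 224 CPM in the control libraries and at 247, 268 and 281 CPM in the libraries labelled cKO. These were the steadiest values of the 5 genes, with a coefficient of variation of 5.51% in the control group and 6.57% in the cKO group, and the groups were apart. The log2 fold change was 0.33, with a 95% confidence interval of 0.083 to 0.57 (edgeR adjusted p = 0.0834). DESeq2 gave 0.34 with an adjusted p of 0.0353, and 12 other settings left it above 0.05.

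Tfip11, the activator of Dhx15, lies on the plus strand of the same chromosome from 112326358 to 112338073. Its level was 106, 67.6 and 82.0 CPM in the control libraries and 112, 102 and 96.2 CPM in the libraries labelled cKO. Control library 1 was again high, above cKO 2 and cKO 3. The log2 fold change of 0.28 had a 95% confidence interval of -0.082 to 0.64, which includes 0 (edgeR adjusted p = 0.297). Without control library 1 it was 0.46 (edgeR adjusted p = 0.0354), and without control library 2 it was 0.14 (edgeR adjusted p = 0.674).

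Dbr1, the debranching enzyme, lies on the plus strand of chromosome 9 from 99575799 to 99584501. It had 120, 80.5 and 95.7 CPM in the control libraries and 111, 122 and 141 CPM in the libraries labelled cKO. Here too control library 1 exceeded the library labelled cKO 1. The log2 fold change was 0.34, with a 95% confidence interval of -0.019 to 0.70 (edgeR adjusted p = 0.203). Leaving out control library 1 brought it to 0.50 (edgeR adjusted p = 0.0331), and leaving out control library 2 brought it to 0.21 (edgeR adjusted p = 0.512). Paxbp1, Tfip11 and Dbr1 each passed without control library 1, and Gcfc2 and Dhx15 did not.

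**Figure D3:**
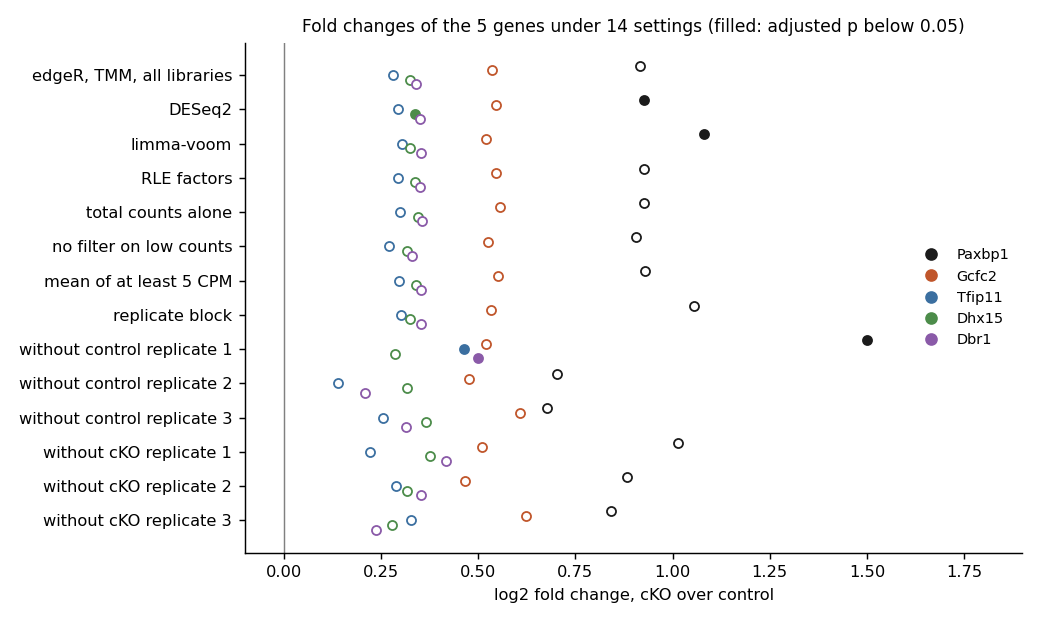
Log2 fold change, cKO over control, of the 5 genes with all libraries in edgeR and under 13 alternatives. Filled points have an adjusted p below 0.05. All points lie above 0, Paxbp1 ranges from 0.68 to 1.5, and 3 of the 6 filled points fall in the setting without control library 1.

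Levels of different genes were compared only per length, as the FPKM that the authors deposited, a level scaled to gene length and library size. Dhx15 was the most abundant, at 70.6 ± 2.89 FPKM for control and 90.1 ± 5.61 FPKM for cKO (mean ± S.D. of 3 libraries each). Dbr1 followed with 57.3 ± 12.8 and 70.7 ± 7.5 FPKM. Their ranges overlapped, and Dhx15 was above Dbr1 in 5 of 6 libraries. Tfip11 had 23.8 ± 5.75 and 29.3 ± 2.28 FPKM and stayed below Dbr1 in 6 of 6 libraries. Paxbp1, at 8.07 ± 4.94 and 15.5 ± 2.13 FPKM, stayed below Tfip11 in 6 of 6 libraries. Gcfc2 was the least abundant, at 3.55 ± 0.345 and 5.17 ± 0.667 FPKM. It was below Paxbp1 in 6 of 6 libraries, but the ranges over all libraries overlapped. The disassembly helicase and the debranching enzyme thus stood well above the pair of related factors in both groups.

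The other genes of the pathway were taken from lists by role. The first holds 10 genes for the helicases of the preceding steps, Dhx16, Dhx38 and Dhx8, for cofactors of debranching and for recycling of the particle. Of these 0 were called by edgeR in either direction (DESeq2 also called 0). The median log2 fold change was 0.17, and 9 of 10 were positive, beside 49.8% of all tested genes. The smallest p belonged to Cwf19l1, a relative of a yeast debranching cofactor. It had 33.0, 27.8 and 30.6 CPM in the control libraries and 34.6, 43.0 and 42.3 CPM in the libraries labelled cKO, which did not overlap (log2 fold change 0.39, edgeR adjusted p = 0.136). Before adjustment 2 of the 10 had a p below 0.05, beside 27.9% of all tested genes. These were Cwf19l1 at 0.0309 and Sart3, a recycling factor, at 0.0392 by edgeR. Without control library 1, edgeR called Dhx38, Sart3 and Usp15 higher, with log2 fold changes of 0.57, 0.35 and 0.53. In that setting 8.42% of all tested genes were called higher.

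The second list holds 8 further proteins that bind or activate Dhx15. Here 0 genes were called, 5 of 8 log2 fold changes were negative and the median was -0.13. Zgpat, a G-patch protein, had the smallest p, with 126, 96.3 and 96.1 CPM in the control libraries and 83.6, 91.4 and 75.4 CPM in the libraries labelled cKO. All control libraries were above all libraries labelled cKO (log2 fold change -0.35, unadjusted p = 0.0372, edgeR adjusted p = 0.152). Zgpat was the gene of this list with an unadjusted p below 0.05, and DESeq2 called 0 of the list. Dhx15 and Tfip11 had positive values beside this negative median, and that difference was not tested.

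The Prp19 complex and its related proteins remain on the intron-lariat spliceosome, and 15 of their genes were tested. By edgeR 2 rose and 0 fell, beside 4.47% and 5.89% of all tested genes, and the median was 0.16 on the log2 scale. DESeq2 also called Bcas2 and Ppil1 higher and Ctnnbl1 lower, where it called 16.9% of all tested genes and 8.3% higher. Isy1, a splicing factor of the catalytic spliceosome, rose from 63.0, 64.3 and 74.5 CPM in the control libraries to 103, 86.0 and 109 CPM in the libraries labelled cKO (log2 fold change 0.57, standard error 0.14 and adjusted p = 0.0302 by edgeR). Plrg1, a core subunit, rose from 120, 109 and 123 CPM to 148, 162 and 164 CPM, or by 0.43 ± 0.11 (standard error) on the log2 scale (edgeR adjusted p = 0.0384). For both genes the groups were apart. Isy1 lost the call without control library 2, cKO 1 or cKO 3 (edgeR adjusted p of 0.142 at most), and Plrg1 lost it without any library other than control library 1 (edgeR adjusted p between 0.0777 and 0.156).

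The last list holds 15 genes of the nuclear exosome, its cofactors and the exonuclease Xrn2, which degrade introns after debranching. By edgeR 2 rose and 0 fell, beside 4.47% and 5.89% of all tested genes, and the median was 0.21 on the log2 scale. DESeq2 also called Exosc2 higher and Exosc4 lower, where it called 16.9% of all tested genes and 8.3% higher. Dis3, the catalytic subunit of the nuclear exosome, stood at 58.1, 55.0 and 61.1 CPM in the control libraries and at 93.1, 98.4 and 92.9 CPM in the libraries labelled cKO. The gap between the groups was several times their spread, with a log2 fold change of 0.71 ± 0.12 (standard error) and an edgeR adjusted p of 0.00825. Exosc9, a subunit of the exosome ring, rose from 62.2, 50.1 and 52.0 CPM to 75.5, 79.7 and 84.0 CPM, or by 0.54 ± 0.13 (standard error) on the log2 scale (edgeR adjusted p = 0.0321). Dis3 kept its call in 12 of 13 alternative settings and lost it without cKO 3 (edgeR adjusted p = 0.0523). Exosc9 kept it in 8 of 13 and lost it without any library other than control library 1 (edgeR adjusted p between 0.0768 and 0.140).

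Across these lists together, edgeR called 4 of 48 genes, all 4 higher, beside 10.4% of all tested genes, 4.47% higher and 5.89% lower. Positive log2 fold changes were seen for 35 of 48, beside 49.8%. The median was 0.11, beside -0.0017 over all tested genes. DESeq2 called 7 of the 48 higher and 2 lower, beside 16.9% of all tested genes in either direction and 8.3% higher. Counted in either direction, these calls are near the shares over all genes. The calls in the higher direction alone exceed their share, and this excess was not tested. Ctnnbl1 was called lower in 5 of 13 alternatives. By edgeR without cKO 3, 0 of the 48 were called. Without control library 1 it was 9 higher and 1 lower, where 8.42% of all tested genes were called higher. Without control library 2 or cKO 1 only Dis3 was called, and without control library 3 only Dis3 and Isy1. Leaving out cKO 2 gave Dis3 and Isy1 higher and Ctnnbl1 lower, the last at -0.64 with an edgeR adjusted p of 0.0409.

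**Figure D4:**
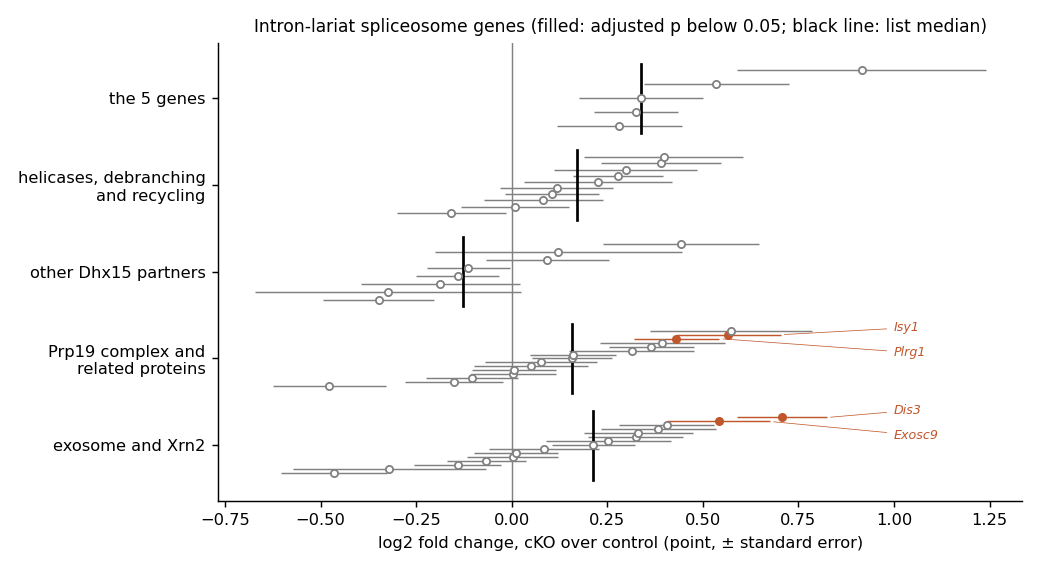
Log2 fold change, cKO over control, with its standard error for the 5 genes and for 48 further genes in lists by role, with each list's median as a black line. The 4 filled points, Isy1, Plrg1, Exosc9 and Dis3, lie in the lists of the Prp19 complex and of intron decay, and the median of the other Dhx15 partners lies below 0.

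The Pax factors that give Paxbp1 its name had few or no counts. Pax3 had 0 counts in all 6 libraries, and a count of 0 allows up to 3 counts, or 0.116 to 0.156 CPM at these depths. Pax7 was counted 22, 6 and 27 times in the control libraries and 9, 2 and 6 times in those labelled cKO, and was not tested. These counts overlapped between the groups.

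Genes around Paxbp1 were read beside it. Of 44 annotated genes within 500 kb, 13 were in the table and 7 passed the filter on low counts. Of these 7, 0 were called by edgeR, beside 10.4% of all tested genes. A positive log2 fold change was seen for 6 (median 0.34), beside 49.8% of all tested genes. Synj1 starts 2.73 kb from the end of Paxbp1. Synj1 had 37.7, 36.1 and 31.8 CPM in the control libraries and 31.4, 29.9 and 22.5 CPM in the libraries labelled cKO (edgeR log2 fold change -0.33, adjusted p = 0.245). Its sign was opposite to that of Paxbp1. Urb1, a ribosome biogenesis gene 204 kb away, had the largest value among the 7, with 7.73, 9.56 and 8.08 CPM in the control libraries and 19.5, 14.2 and 12.0 CPM in the libraries labelled cKO (log2 fold change 0.85, edgeR adjusted p = 0.054). Among the 7, the groups were apart for Urb1, Mis18a, Ifnar2 and Synj1, beside 33.0% of all tested genes. The interferon receptor genes Ifnar2 and Ifnar1, the centromere gene Mis18a, and Il10rb and Cfap298 had log2 fold changes of 0.34, 0.43, 0.40, 0.18 and 0.047 in that order (edgeR adjusted p between 0.0952 and 0.882). Without control library 1 edgeR called Ifnar1, at 0.55 with an adjusted p of 0.0246, and with a mean of at least 5 CPM it called Urb1, at 0.87 with an adjusted p of 0.0478. DESeq2 called Urb1 (log2 fold change 0.86, adjusted p = 0.019) and Ifnar1 (log2 fold change 0.44, adjusted p = 0.0459), where it called 16.9% of all tested genes.

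**Figure D5:**
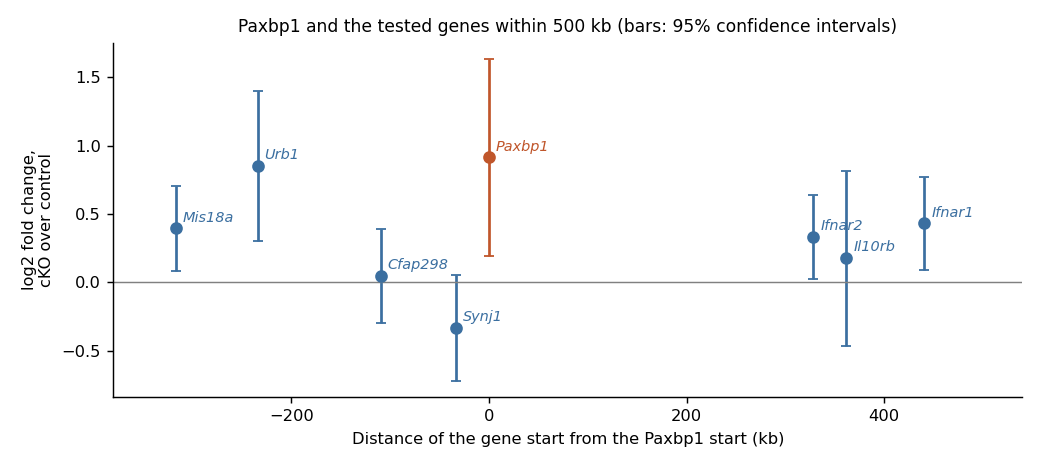
Log2 fold change, cKO over control, with its 95% confidence interval, against the distance of each gene start from that of Paxbp1 in kb, for Paxbp1 and the 7 tested genes within 500 kb. Negative distances are towards lower coordinates. The nearest tested gene, Synj1, lies below 0 at -0.33 and Urb1, at 0.85, has the value nearest to that of Paxbp1.

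The genes whose profile over the 6 libraries was most like that of each of the 5 were named by the highest Pearson r of log2 CPM. With 6 points shared by genotype and library, such values are a description. For Paxbp1 these were Zmym1, C1galt1c1, Map3k2, Zhx1 and Tubb2a, with r between 0.992 and 0.994. Tubb2a, a beta-tubulin, had 1003, 611 and 604 CPM in the control libraries and 1040, 1078 and 1062 CPM in the libraries labelled cKO, which repeats the high control library 1. For Dhx15 they were Rpa2, Gmnn and Mcm3, with r between 0.996 and 0.997, which encode a subunit of the single-strand binding protein RPA, geminin and a subunit of the replicative helicase. Those 3 genes rose, by 0.84, 0.92 and 1.05 on the log2 scale (edgeR adjusted p = 0.00825 for each). Gcfc2 was most like Osgin2, Chmp7 and 4930430F08Rik (r between 0.984 and 0.989). Tfip11 was most like Zfr, Cbx8 and Rrp9 (r between 0.986 and 0.999), and Dbr1 was most like Isg20l2, Shld3 and Rnf4 (r between 0.990 and 0.992). Among the 5 genes, r was highest between Paxbp1 and Dbr1 at 0.92 and lowest between Tfip11 and Dhx15 at 0.39.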

How the data were processed

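RNA of sorted DP thymocytes was sequenced in 6 libraries. The table that the authors deposited holds, for each gene and library, a whole-number count without normalization and an FPKM value that the authors scaled to gene length and library size. It also holds group means, fold changes, p-values and FDR of the authors' own comparison, which were not used. Per the labels, the submitters' processing notes name fastp 0.18.0, Bowtie2 2.2.8, HISAT2, StringTie and RSEM, but not the roles of these tools. No source used here gives their genome build or annotation. The labels and the study's methods name different kits, and the latter pre-amplified the cDNA. Positions are from GENCODE M21 (GRCm38), matched by Ensembl identifier for 22267 of 22322 genes.

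Counts were compared in R 4.3.3 with edgeR 4.0.16 (quasi-likelihood test, TMM, filterByExpr at min.count 10 and min.total.count 15, genotype as the only term), which kept 11488 of 15349 genes with a count. Standard errors are the log2 fold change divided by the root of the test's F. A gene was called at an adjusted p below 0.05. Chi-square divided by its degrees of freedom was 19.1 to 64.9 between libraries of a group, so no library was a duplicate of another in its group. Libraries of different groups were not compared in this way. The script was tested on simulated data. Alternatives were DESeq2 1.42.0, limma-voom (limma 3.58.1), RLE factors, total counts, no filter, a mean of at least 5 CPM, the replicate number as a block and each library left out in turn. The named genes are the 5 genes, each called gene of the pathway lists or else the gene with the smallest p, Pax3, Pax7, the tested genes within 500 kb of Paxbp1, and the 5 genes (3 for the other members) with the highest Pearson r of log2 CPM (prior count 2, mean of at least 5 CPM). Other genes were named after their values were seen. The members and lists were chosen with earlier results of these data known. A list of 15 non-coding snoRNA host genes is described in the closing section.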

Additional observations from a re-analysis of the deposited data

How the results depend on the processing

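All 5 genes kept a positive log2 fold change in 13 alternative settings, and Gcfc2 passed in none of them. DESeq2 called 953 genes higher, 7 pathway genes higher and 2 lower, and 2 of the 5 genes, Paxbp1 (log2 fold change 0.93, adjusted p = 0.0226) and Dhx15 (0.34, adjusted p = 0.0353). Limma-voom called Paxbp1 (log2 fold change 1.08, adjusted p = 0.039), 1 of the 5 genes, and 1 pathway gene lower. No filter, a mean of at least 5 CPM and the replicate block also gave 1 pathway gene lower. With 1 library left out in turn, the genes called higher ranged from 42 to 1000 and those called lower from 78 to 1030. The lowest numbers came without cKO 3 and the highest without control library 1, and the cause was not tested. Pathway genes called ranged from 0 to 9 higher and 0 to 1 lower, and members called from 0 to 3. The log2 fold changes ranged from 0.68 to 1.5 for Paxbp1, 0.14 to 0.46 for Tfip11 and 0.21 to 0.50 for Dbr1. Signs turned for Cfap298 without control library 1 (-0.058, edgeR adjusted p = 0.82, range 0.018 to 0.10 without any other library) and Il10rb without cKO 1 (-0.19, edgeR adjusted p = 0.693, range 0.083 to 0.35 without any other library). The group difference in the log2 ratio of Gcfc2 to Paxbp1 stayed negative throughout, between -0.97 and -0.21. With the replicate number as a block, 570 genes were higher and 668 lower, beside 514 and 677 without it, and no call of the 5 genes changed. For libraries with the same number, the correlations of their deviations from the group means were 0.0451, 0.0377 and -0.030. Not every library correlated best with its own number, as cKO 3 did so with control library 2, at 0.0401. These values cannot show whether libraries of the same number shared a litter or a batch. For Tfip11 and Dbr1 the groups overlapped, while Dhx15, with a log2 fold change of like size (0.33), had less spread in the control libraries and groups apart.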

Other observations

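Intronic snoRNAs are released from introns by debranching, and 15 non-coding host genes of such snoRNAs were listed to follow them. By symbol, 1 of the 15 was found in the deposited table, Snhg4, and the others are not analysed here. Snhg4 was counted 8, 6 and 14 times in the control libraries and 56, 13 and 13 times in those labelled cKO. Its levels of 0.415, 0.308 and 0.544 CPM lay below the 2.56, 0.677 and 0.600 CPM of the cKO group, and it was not called (log2 fold change 1.58, edgeR adjusted p = 0.233). Without cKO 1 it was 0.58 (edgeR adjusted p = 0.745).

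The length by which the authors' FPKM divided each count can be read back from the count, the FPKM and the library total. For Paxbp1 this implied length was 2947, 2963 and 3053 nt in the control libraries and 2993, 2955 and 2883 nt in the libraries labelled cKO, beside 3973 nt for the coding transcript. The ranges of the groups overlapped. For Tfip11 it stayed between 3530 and 3561 nt and for Dhx15 between 2940 and 2993 nt, near the 3560 and 3010 nt of an annotated coding transcript of each. It was shorter than the annotated coding transcript for Gcfc2, at 3714 to 3998 nt beside 4192 nt, and for Dbr1, at 1701 to 1851 nt beside 2261 nt, so a shortfall was not particular to Paxbp1.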
